A study of Mus musculus with 18 samples.

Results

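Contacts that the β-globin genes and the mitoferrin gene made over long distances on their own chromosomes were described, as 1 Mb bins. For the Hbb-b1 and Hbb-b2 viewpoints, whose counts were summed, a bin was a member when it lay on chromosome 7 (mm9) below 110 or above 112 Mb. For the Slc25A37 viewpoint it was a member when it lay on chromosome 14 below 69 or above 71 Mb. This left out the 2 bins around each viewpoint and kept 275 of the 279 bins of both chromosomes, 151 of 153 on chromosome 7 and 124 of 126 on chromosome 14. Of these, 142 and 121 bins held at least 100 DpnII fragments and were analysed, and the other 9 and 3 were not. Over all 18 samples, 488130 of the 6163963 counts of the series were long-range contacts of these viewpoints, 332845 of the 776344 counts that β-globin made on chromosome 7 and 155285 of the 524532 that Slc25A37 made on chromosome 14.

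The counts came from NG Capture-C, in which chromatin is crosslinked, cut with DpnII and ligated, and oligonucleotides then pull out the ligation products of chosen viewpoint fragments. All samples were Ter119+ erythroid cells from the spleens of adult C57BL/6 mice (C57BL/6J in the methods) treated with phenylhydrazine, which destroys red cells so that their precursors fill the spleen. Experiment 1 held WT and ∆44/48 cells, and experiment 2 held WT, ∆θ1, ∆θ2 and ∆θ1/θ2 cells, with 3 samples in each group. The deletions were made with CRISPR-Cas9 and are homozygous, and they remove CTCF-binding sites of the α-globin locus, HS+44 and HS+48 in ∆44/48 and the sites at the θ1 gene, the θ2 gene or both in the others. All of them lie on chromosome 11, another chromosome than those described here. The counts pool all cells of a sample, so fewer cells with a contact and a rarer contact in each cell cannot be told apart. Capture-C measures no expression, and the erythroid label was not checked against marker genes here.

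Contacts within a chromosome become rarer with distance, and on top of this fall, regions of active and gene-rich chromatin meet other active regions more often while inactive regions meet each other, which divides each chromosome into 2 compartments. β-globin is among the most strongly transcribed genes of an erythroid cell. Slc25a37, or mitoferrin, carries iron into mitochondria, where it is built into heme.

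Both β-globin viewpoints were captured from near-identical genes. They are printed here because this likeness decides how their long-range contacts can be counted. The first bases of both viewpoint fragments on the + strand of mm9 are shown, from chr7:110961967-110962237 and chr7:110975976-110976246, with the DpnII site and the first base that differs in capitals.
Hbb-b1 viewpoint start: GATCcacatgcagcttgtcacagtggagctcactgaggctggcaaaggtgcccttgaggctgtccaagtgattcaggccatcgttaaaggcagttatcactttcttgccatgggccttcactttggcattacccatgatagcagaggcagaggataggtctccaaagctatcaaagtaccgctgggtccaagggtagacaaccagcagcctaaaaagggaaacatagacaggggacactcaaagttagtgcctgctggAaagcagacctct
Hbb-b2 viewpoint start: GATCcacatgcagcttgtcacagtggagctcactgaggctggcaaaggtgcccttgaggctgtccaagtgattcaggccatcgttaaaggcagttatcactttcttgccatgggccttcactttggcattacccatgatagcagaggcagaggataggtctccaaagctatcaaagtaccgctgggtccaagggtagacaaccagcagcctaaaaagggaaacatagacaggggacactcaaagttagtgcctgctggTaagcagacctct
Both stretches overlap coding exons, and the first 258 bases were identical. The fragments are 851 and 481 bp long. The annotation names the gene under the viewpoint listed as Hbb-b1 as Hbb-b2, and the other the reverse, so the names here are those of the viewpoint list. Between 57.5 and 89.6% (median 75.8%) of the long-range fragments listed for Hbb-b1 in a sample were listed for Hbb-b2 too, and 60.1 to 78.3% (median 69.2%) of those for Hbb-b2 were listed for Hbb-b1. Of the shared fragments, 54.5 to 91.3% (median 72.3%) had the same count from both. The sum therefore holds many products more than once, and bin calls are also given with the higher count of the pair per fragment in its place.

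Depth set how finely each group could be read. Experiment 1 had between 345162 and 1120609 counts in a sample over all its viewpoints, and experiment 2 only 8820 to 232346. Long-range β-globin counts per sample ran from 45107 to 58086 in WT of experiment 1 and from 14691 to 36857 in ∆44/48. In experiment 2 they were 6596 to 14775 in WT, 1212 to 2969 in ∆θ1, 6601 to 20537 in ∆θ2 and 4879 to 11562 in ∆θ1/θ2. The Slc25A37 viewpoint gave 14495 to 17754, 6484 to 22490, 3827 to 8232, 318 to 1137, 4541 to 12375 and 3839 to 7345 in the same order. PCR reads without molecular identifiers are not independent molecules, so counting error is only a lower limit of the error. The p-values measure the spread between these samples.

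β-globin sent a larger share of its cis counts over long distances than mitoferrin did. In WT of experiment 1, 36.8, 40.3 and 41.3% of the β-globin cis counts were long-range (39.5% ± 2.33, SD, n = 3). In WT of experiment 2 the values were 41.2, 41.6 and 50.1% (44.3% ± 5.02, n = 3). For Slc25A37 they were 32.2, 34.5 and 34.3% (33.7% ± 1.29, n = 3) and 30.7, 33.8 and 31.1% (31.9% ± 1.71, n = 3). The lowest WT value of β-globin lay above the highest of Slc25A37. With long range taken as 1 Mb or more from the viewpoint, so that all viewpoints could be set side by side, β-globin was higher than Slc25A37 in 6 of 6 samples of experiment 1 and by 12.1 percentage points on average (SD 8.38; two-sided exact permutation test over sign changes within samples, p = 0.0312). In experiment 2 it was higher in 12 of 12 samples, by 18.7 points (SD 7.12; exact p = 0.0005, adjusted p over 6 comparisons 0.00146). The α-globin promoters lay between them. β-globin was above α-globin by 7.23 points in experiment 1, higher in 6 of 6 samples, and by 13.9 points in experiment 2, higher in 12 of 12. The first of these fell to 0.684 points (exact p = 0.8125) when the zone left out around the viewpoints was 5 kb wider. Slc25A37 minus α-globin was -4.84 points, lower in 6 of 6 samples, and -4.78 points, lower in 10 of 12 (exact p = 0.0034). Every fragment was also counted at most once per sample and viewpoint, so a fragment listed for both β-globin viewpoints still counted from each. This count brought the difference of β-globin and Slc25A37 to 3.399 and 7.37 points in the 2 experiments. It ended the call for β-globin against α-globin in experiment 1 (0.821 points, exact p = 0.0625) and for Slc25A37 against α-globin in experiment 2 (-0.558 points, exact p = 0.556), so the place of α-globin between them depends on this choice.

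**Figure D1:**
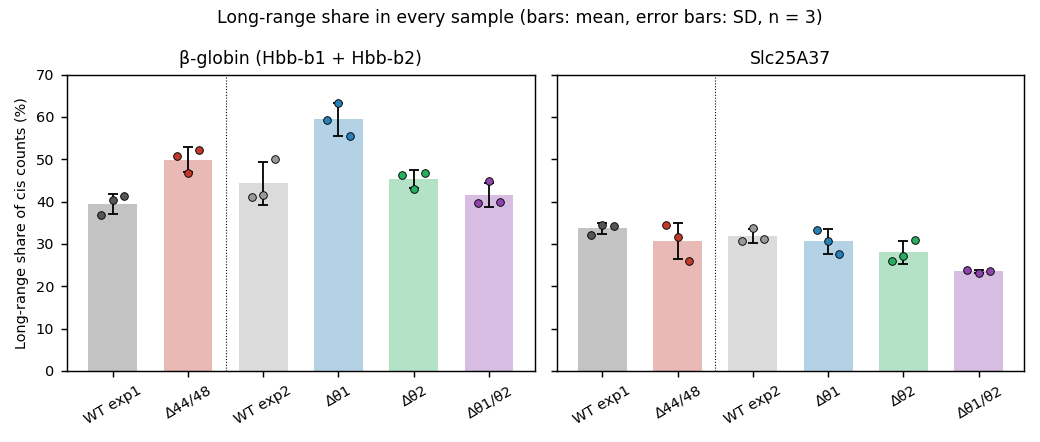
Long-range counts as a percent of the cis counts of the viewpoint (y axis) for each of the 18 samples, by group (x axis), with the mean and SD of each group, for β-globin and for Slc25A37. The β-globin points of ∆44/48 and ∆θ1 lie above all WT points of their experiment, and the Slc25A37 points of ∆θ1/θ2 lie below theirs.

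In ∆44/48, the β-globin share was 50.8, 46.6 and 52.2% (49.9% ± 2.91, n = 3). All 3 samples lay above all 3 WT samples of experiment 1, by 10.4 points on average. With 3 against 3 samples the smallest two-sided exact permutation p is 0.1, which this difference had (0.267 adjusted over 8 comparisons), so the design cannot pass 0.05. When every fragment was counted at most once per sample and viewpoint the difference turned to -3.30 points. In ∆θ1 the shares were 59.2, 63.4 and 55.6% (59.4% ± 3.90, n = 3), again above all WT samples, by 15.1 points (exact p = 0.1), and the same count turned this to -7.78 points. In both groups more of the β-globin counts also lay on other chromosomes. The trans share of all β-globin counts was 29.4 to 39.6% in ∆44/48 against 25.0 to 29.7% in WT, and 39.8 to 46.1% in ∆θ1 against 29.9 to 34.7%. The part of depth and of the trans share in these differences was not tested.

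The β-globin shares of ∆θ2 (46.3, 42.8 and 46.7%) and of ∆θ1/θ2 (39.7, 44.7 and 40.0%) overlapped those of WT, with differences of 1.02 and -2.78 points (exact p = 0.8 and 0.5). For Slc25A37 the order was another. ∆θ1/θ2 had 23.9, 23.1 and 23.5% (23.5% ± 0.391, n = 3), all below WT (difference -8.37 points, exact p = 0.1, adjusted p 0.267), which shrank to -3.34 points (exact p = 0.4) with each fragment counted once. ∆θ2 had 25.9, 27.1 and 31.0%, and its highest sample lay within the WT range (-3.87 points, exact p = 0.2), a difference that became 2.03 points under the same count. ∆44/48 (34.5, 31.6 and 26.0%) and ∆θ1 (33.3, 30.7 and 27.7%) overlapped WT, with differences of -2.98 and -1.30 points (exact p = 0.3 and 0.5). With each fragment counted once the ∆θ1 difference was -23.2 points (exact p = 0.1). ∆θ1 had only 318 to 1137 long-range Slc25A37 counts in a sample against 3827 to 8232 in WT. The part of depth in this value and in the others under the same count was not tested.

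Contact density fell with distance from both genes, but not evenly on the sides of the viewpoint. Density is given as counts per Mb per 100000 cis counts, averaged over the 3 WT samples of experiment 1. On the side of lower coordinates and of the centromere, β-globin had 2792 at 1 to 2 Mb, 1232 at 2 to 5 Mb, 485 at 5 to 10 Mb, 348 at 10 to 20 Mb, 252 at 20 to 40 Mb, 66.8 at 40 to 80 Mb and 45.4 at 80 to 120 Mb. On the other side it had 1357, 399, 659, 477, 386 and 201, the last from the bins between 40 Mb and the end of the chromosome. On that side density rose again from 2 to 5 Mb to 5 to 10 Mb. From 5 to 40 Mb the side of higher coordinates had the higher density in each band, and beyond 40 Mb it holds only 2 bins, so the sides were not compared there. Slc25A37 had 1094, 963, 726, 687, 240 and 78.2 from 1 to 80 Mb on the side of lower coordinates and 2140, 524, 815, 124, 85.1 and 107 on the other. From 10 to 40 Mb its higher density was therefore on the lower side.

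Averaged over a band of distance, even the farthest bins had a higher density than other chromosomes. The density of counts on all other chromosomes gives a level for contacts that no shared chromosome favours. In WT of experiment 1, β-globin density over both sides was 77.8 ± 1.45 (SD, n = 3) times this level at 1 to 2 Mb, 12.04 ± 1.30 times at 20 to 40 Mb and 2.74 ± 0.226 times at 40 to 80 Mb. At 80 to 120 Mb it was 1.71 ± 0.254 times, and the lowest of the 3 samples still had 1.47. For Slc25A37 it fell from 61.7 ± 3.13 times at 1 to 2 Mb to 6.21 ± 0.807 at 20 to 40 Mb and 3.41 ± 0.552 at 40 to 80 Mb. WT of experiment 2 had higher ratios in each of these bands, from 103 to 2.41 for β-globin and from 88.1 to 3.92 for Slc25A37.

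**Figure D2:**
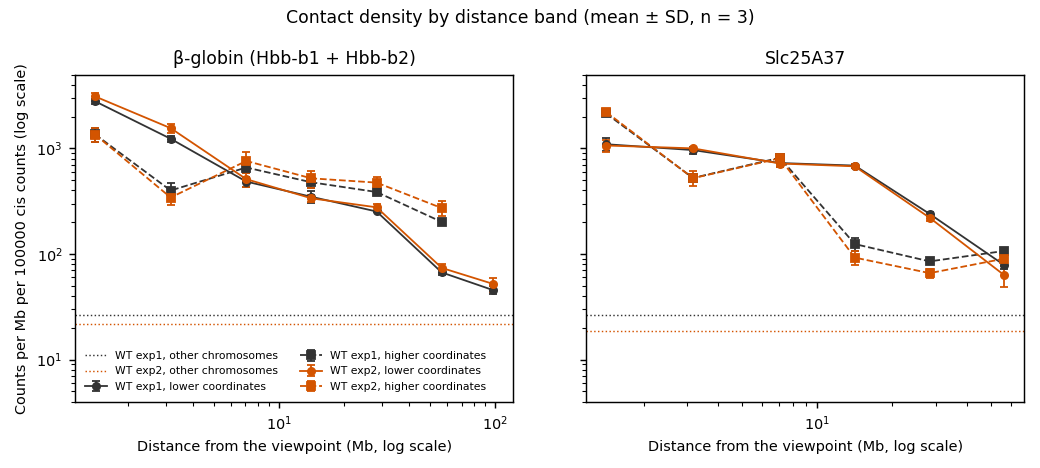
Counts per Mb per 100000 cis counts (y axis, log scale) against distance from the viewpoint in Mb (x axis, log scale) for both WT groups, on each side of the viewpoint, with mean and SD over 3 samples. Density is lower in the farthest than in the nearest band on all 4 sides but rises between bands on the side of higher coordinates, and the dotted line, the density on other chromosomes, lies below every band.

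An exponent of the fall was fitted per sample, from a Poisson model of the bin counts on the logarithm of distance. For β-globin it was -0.750 ± 0.0238 (SD, n = 3) in WT of experiment 1 and -0.739 ± 0.0189 in WT of experiment 2. The 4 deletion groups had -0.756, -0.706, -0.757 and -0.748 in the order ∆44/48, ∆θ1, ∆θ2 and ∆θ1/θ2, and each overlapped its WT samples (two-sided exact permutation p from 0.2 to 0.7). The Slc25A37 exponents of WT in experiment 2 were -0.817, -0.840 and -0.854. Those of ∆θ1 were -0.789, -0.712 and -0.745, those of ∆θ2 -0.757, -0.792 and -0.797, and those of ∆θ1/θ2 -0.786, -0.743 and -0.808. All 9 deletion samples had a shallower fall than all 3 WT samples, with differences of 0.0882, 0.0549 and 0.0579, each at the smallest p of 0.1 (adjusted 0.267), and the 3 comparisons share these WT samples. WT of experiment 1 had -0.750, -0.794 and -0.815 and ∆44/48 -0.698, -0.789 and -0.773, which overlapped (exact p = 0.4). The trans share of Slc25A37 was 28.3 to 30.0% in WT of experiment 2, and 37.3 to 42.1, 32.7 to 34.5 and 30.7 to 31.6% in these 3 deletion groups, and its part in the exponents was not tested.

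Individual bins departed from this fall by more than the replicates did. The value expected for a bin's distance came from a smooth curve of the group's counts per DpnII fragment, and a bin was called above or below it at an adjusted p under 0.01 by edgeR's quasi-likelihood test. Of 141 β-globin bins tested in WT of experiment 1, 42 were above (29.8%) and 67 below (47.5%). Of 116 Slc25A37 bins, 32 were above (27.6%) and 61 below (52.6%). In WT of experiment 2, 34 of 126 β-globin bins (27%) and 29 of 101 Slc25A37 bins (28.7%) were above, and 47 (37.3%) and 43 (42.6%) below. The β-globin calls of experiment 2 depend on its replicate 3, since edgeR called 0 bins in either direction without it (31 above and 39 below at an adjusted p under 0.05), and without its replicate 2 the low bins were 31 for β-globin and 15 for Slc25A37. For Slc25A37, 19 bins were above and 22 below without replicate 3. In WT of experiment 1 the low β-globin bins were 40 without replicate 2. With the higher count of the pair of β-globin viewpoints per fragment, 41 bins were above and 68 below in WT of experiment 1 and 38 and 48 in WT of experiment 2. With only fragments that any viewpoint ever hit as opportunity, the bins above were 18 for β-globin and 19 for Slc25A37 in WT of experiment 1.

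The β-globin bins highest above their expected value were gene-dense. The bin at 134 to 135 Mb, with 52 protein-coding genes other than olfactory and vomeronasal receptors, among them Sept1, a septin, had 1220, 1060 and 988 counts per 100000 cis counts in the WT samples of experiment 1 where 308 were expected, a ratio of 3.53. All 3 samples lay above 3 times the expected value, and the ratio was 4.37 in WT of experiment 2. Its neighbours at 133 to 134 and 135 to 136 Mb had ratios of 2.57 and 3.02. The first holds Aldoa, a glycolytic enzyme, whose gene body alone had 85 counts where 6.36 were expected. The bin at 148 to 149 Mb, also with 52 such genes, had 804.6, 762.9 and 753.0 counts where 213 were expected, a ratio of 3.62, and 4.65 in WT of experiment 2. It holds Taldo1, an enzyme of the pentose phosphate pathway, and Ptdss2, a phosphatidylserine synthase.

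On the other side, the high bins reached almost to the start of the chromosome. The bin at 52 to 53 Mb had the most genes of them, 69, including Ftl1, the ferritin light chain, Bax, a mediator of apoptosis, and Akt1s1, a regulator of mTOR signalling. It had 368, 369 and 328 counts where 105 were expected (ratio 3.399). At 25 to 26 Mb, the bin of Kcnn4, the Gardos potassium channel of red cells, had 149, 116 and 105 where 37.8 were expected (3.25), and at 28 to 29 Mb, the bin of Blvrb, a heme catabolism enzyme, had 128, 109 and 115 where 44.5 were expected (2.63). In these bins every WT sample lay above the expected value. The bins at 87 to 88 Mb (with Prc1, which organises the mitotic spindle), 16 to 17 Mb and 4 to 5 Mb had ratios of 3.01, 3.04 and 3.64. The last of these, 106 Mb from the viewpoint, had 74.3, 86.6 and 71.5 counts where 21.4 were expected. With a power law as the expected value, the bins at 4 to 5 and 16 to 17 Mb were at -0.19 and -0.031 on the log2 scale, so their excess depends on the curve chosen at that distance. With counts from the chromosome 11 viewpoints as the measure of opportunity, the bin at 52 to 53 Mb turned to -0.51 and was called below. That at 87 to 88 Mb turned to -0.20, which did not pass. The bins at 16 to 17, 25 to 26 and 28 to 29 Mb no longer passed (0.42, 0.18 and 0.016). Those at 134 to 135 and 148 to 149 Mb stayed above by this measure, at 0.44 and 0.98.

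The lowest β-globin bins included vomeronasal receptor clusters and an imprinted domain. At 22 to 23, 9 to 10 and 21 to 22 Mb, ratios were 0.0831, 0.140 and 0.154, and these bins hold 13, 8 and 20 vomeronasal receptor genes. Only 1.77, 4.18 and 2.79% of their DpnII fragments had a count from any viewpoint in any sample. With the chromosome 11 counts as opportunity their log2 ratios were 0.60, 0.093 and 0.71. None of these passed (edgeR adjusted p = 0.539, 0.928 and 0.279). Next came the bins at 77 to 78 Mb, with 2 such genes, and at 69 to 70 Mb. With ratios of 0.157 and 0.168, they had counts on 14.5 and 13.3% of their fragments. The latter holds Ndn and Magel2, imprinted genes of the Prader-Willi region, and had 30.2, 35.3 and 43.7 counts where 217 were expected. It was part of the longest run of low bins on chromosome 7, 7 bins from 64 to 71 Mb with a median ratio of 0.205 and 18 such genes, which also holds Snrpn and Ube3a. The median over the run was 0.146 in WT of experiment 2, 0.225 in ∆44/48, 0.270 in ∆θ2 and 0.157 in ∆θ1/θ2.

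The highest mitoferrin bins stood farther above their expected value. At 21 to 22 Mb, 48.4 Mb from the viewpoint, 708, 580 and 581 counts were found where 83.6 were expected, a ratio of 7.43. All 3 samples lay far above the expected value, and the ratio was 8.50 in WT of experiment 2 and between 9.27 and 11.9 in the 4 deletion groups. This bin holds Sec24c, a coat protein of vesicles that leave the endoplasmic reticulum, and Anxa7, an annexin. At 119 to 120 Mb, 49.6 Mb away on the other side, 435, 430.1 and 430.0 counts stood against 79.8 expected (5.41), in a bin with 6 such genes, among them Cldn10, a claudin, Abcc4, an exporter of cyclic nucleotides, and Dnajc3, a chaperone of the endoplasmic reticulum. Its neighbours at 121 to 122 and 122 to 123 Mb had 3.21 and 3.81, in a run of 5 high bins from 118 to 123 Mb whose median was 3.21 in experiment 1 and 3.90 in WT of experiment 2. With chromosome 11 counts as opportunity, the log2 ratio of the bin at 21 to 22 Mb fell from 2.89 to 0.18 and no longer passed (adjusted p = 0.0454). Those of the bins at 119 to 120, 121 to 122 and 122 to 123 Mb were 2.13, 1.79 and 1.91, all still above.

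Several more high mitoferrin bins lay on the side of lower coordinates. The bin at 32 to 33 Mb had 649, 551 and 574 counts where 121 were expected (4.88) and holds Ncoa4, the receptor that brings ferritin to autophagy to free its iron. The bin at 31 to 32 Mb (573, 471 and 504 against 116, ratio 4.45) holds Tkt, a transketolase, and Pbrm1, a subunit of a chromatin remodelling complex. In both, each WT sample had over 4 times the expected count. The bins at 47 to 48 and 48 to 49 Mb had ratios of 4.34 and 2.48, and that at 55 to 56 Mb, with Psmb5 of the proteasome and the arginine methyltransferase Prmt5, had 3.02. With chromosome 11 counts as opportunity the log2 ratios of these 5 bins, in the order given, were 0.32, 0.24, 0.52, 0.13 and 0.48, and that at 48 to 49 Mb no longer passed. Another run of 5 high bins stretched from 54 to 59 Mb with 116 such genes and a median ratio of 2.10.

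Low mitoferrin bins formed long gene-poor runs. Between 88 and 99 Mb, 11 bins in a row with 7 such genes in all had a median ratio of 0.190, and between 106 and 115 Mb 9 bins with 12 genes had 0.295. Between 80 and 87 Mb, 7 bins with 5 genes had a median of 0.199, which includes the bins at 83 to 84 Mb (ratio 0.156) and 85 to 86 Mb (0.151). The bin at 90 to 91 Mb had 40.0, 42.8 and 43.7 counts where 252 were expected (0.167). The bin between the first and the third of these runs, at 87 to 88 Mb, had 404, 531 and 485 counts against 295 expected, a ratio of 1.62, and was chosen for this contrast after its values were seen. It holds Tdrd3, a tudor domain protein, whose gene body had 150 counts where 50.0 were expected. The lowest of the bins called, at 42 to 43 and 43 to 44 Mb (0.0502 and 0.0997), had counts from any viewpoint on only 5.14 and 7.30% of their fragments.

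**Figure D3:**
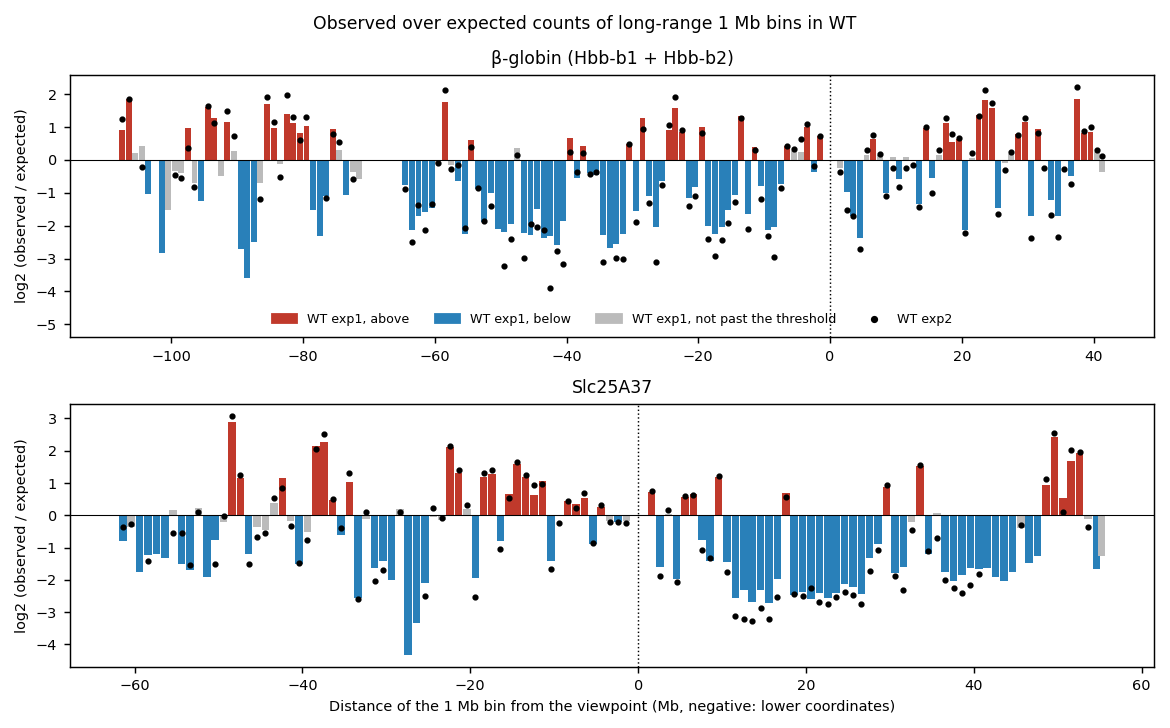
Log2 of observed over expected counts (y axis) for each 1 Mb bin along chromosome 7 from β-globin and along chromosome 14 from Slc25A37 (x axis, signed distance from the viewpoint in Mb). Bars are WT of experiment 1, red above and blue below at an adjusted p under 0.01 and grey otherwise, and black dots are WT of experiment 2, which follow the bars.

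Bins with more genes stood higher from both viewpoints, for Slc25A37 up to 10 to 19 genes. Of the 33 β-globin bins with 0 to 2 protein-coding genes other than receptors, 32 were tested, of which 0 were above and 29 below by edgeR at adjusted p under 0.01, with a median ratio of 0.243. Of 51 with 3 to 9 genes, 9 were above and 28 below (median 0.616), of 32 with 10 to 19 genes 12 and 9 (1.18), and of 26 with 20 or more 21 and 1 (2.11), against a median of 0.740 over all bins. For Slc25A37 the medians were 0.287 with 0 to 2 genes (1 above and 40 below of 45) and 0.902 with 3 to 9 (13 and 14 of 42). They were 1.41 with 10 to 19 (12 above and 3 below of 19 tested) and 1.42 with 20 or more (6 above and 4 below of 10 tested), against 0.542 over all. Across bins, the Spearman correlation of the ratio with gene number was 0.723 over 141 β-globin bins and 0.688 over 116 Slc25A37 bins. It was 0.729 and 0.743 with GC content, 0.730 and 0.770 with the percent of DpnII fragments that any viewpoint ever hit, and 0.824 and 0.821 with the counts per fragment from the chromosome 11 viewpoints. Neighbouring bins and all bins of a sample share libraries and base composition, so these are descriptions, and the part of mappability and GC content in the ratios was not tested.

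Erythroid genes lay mostly in high bins and protocadherin genes in low ones, against 29.8% of all β-globin bins and 27.6% of all Slc25A37 bins above and 47.5 and 52.6% below. The 10 bins that hold the listed erythroid, iron or heme genes of chromosome 7 had a median ratio of 1.72, with 8 above and 0 below by edgeR's adjusted p, and the other 2, of Sox6 and Bcam, had ratios of 0.998 and 1.21. Of all bins with 20 or more genes 21 of 26 were above, and the part of gene number in these calls was not tested. With chromosome 11 counts as opportunity, the bin of Ftl1 turned to -0.51 on the log2 scale, and those of Kcnn4 and Blvrb no longer passed (0.18 and 0.016). The other listed bins are not given by this measure. On chromosome 14, of 6 bins with listed erythroid genes 4 were above and 1, that of Bnip3l, was below (0.861). The 4 bins with the protocadherin genes Pcdh8, Pcdh9, Pcdh17 and Pcdh20, which encode adhesion proteins of the nervous system, were all below, at 0.366, 0.230, 0.199 and 0.181. The bin of Trac, the constant region of the T cell receptor α chain, stood at 1.58. Imprinted genes of chromosome 7 did not behave as 1 class. The bins of H19 and Igf2 (1.76) and of Kcnq1, Cdkn1c and Phlda2 (1.79) were above, that of Peg3 and Zim1 did not pass (1.35), and those of Ube3a (0.354), Snrpn (0.191) and Ndn and Magel2 (0.168) were below. Bins with 5 or more olfactory receptor genes had a median of 0.614 (1 above and 5 below of 8), and those with 5 or more vomeronasal receptor genes 0.345 (1 above and 7 below of 13), where 47.5% of all bins were below.

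Within the bins, single genes could be measured. Protein-coding genes with at least 10 DpnII fragments and 10 counts were tested in the same way, a step added after the bins had been seen. Of 800 genes on chromosome 7, 435 (54.4%) were above the value expected for their distance in WT of experiment 1 and the median ratio was 2.24. Of 398 on chromosome 14, 250 (62.8%) were above, with a median of 3.09. In WT of experiment 2 the counts were 207 of 395 (52.4%) and 167 of 252 (66.3%), which fell to 122 and 100 without its replicate 2 and, for β-globin, to 131 without its replicate 3. Genes that reached 10 counts are those with more contacts, and over all 1377 and 760 genes with 10 fragments the medians were 1.60 and 0.850.

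Of the listed genes of chromosome 7, 9 were tested and 9 were above, with a median ratio of 7.06, where 54.4% of all genes tested were above. Kcnn4, which opens on calcium and lets red cells lose potassium and water, had the highest ratio of the 800 genes, with 24.5, 10.4 and 9.53 counts per 100000 cis counts in the WT samples of experiment 1. These are 57 counts where 1.76 were expected, a log2 ratio of 5.02 ± 0.33 (SE), with every sample above. WT of experiment 2 had 31.0, 5.63 and 22.8 and ∆44/48 0, 11.4 and 23.3, so the levels varied widely within groups. The chromosome 11 viewpoints also hit Kcnn4 often, at 23.9 times the mean of the genes tested per fragment, and the log2 ratio was 2.52 when only fragments ever hit were counted as opportunity. Blvrb, at 15.5, 15.2 and 7.15 (log2 ratio 4.05 ± 0.33), was likewise hit at 12.3 times the mean from chromosome 11.

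Uros stood out in another way. It encodes uroporphyrinogen III synthase, an enzyme of heme synthesis, and lies at chr7:140877926-140901755, 29.9 Mb from the viewpoints. It had 106, 116 and 124 counts per 100000 in WT of experiment 1, 65.7, 146 and 143 in ∆44/48, and 105, 146 and 288 in WT of experiment 2. All 9 samples lay far above the value expected, since 454 counts in WT of experiment 1 stood against 27.8 (log2 ratio 4.03 ± 0.12). From chromosome 11 it was hit at 1.21 times the mean of the genes tested. With only fragments ever hit as opportunity, its log2 ratio was 2.52, the same as that of Kcnn4. Of its 68 fragments 59 were hit in WT of experiment 1. A fragment of the gene with 19 counts there lies in an intron at chr7:140894563-140894780 and is shown with its DpnII sites in capitals.
Uros fragment 4: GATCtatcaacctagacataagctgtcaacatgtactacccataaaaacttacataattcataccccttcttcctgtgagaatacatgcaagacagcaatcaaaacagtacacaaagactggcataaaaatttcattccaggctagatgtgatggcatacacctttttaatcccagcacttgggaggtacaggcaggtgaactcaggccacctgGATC
Relative to its own 1 Mb bin, which was itself high (2.21), the log2 ratio of Uros was 2.87.

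The other listed genes of chromosome 7 were above in lower degree. Tspan32, a tetraspanin of blood cells, had a log2 ratio of 2.91 ± 0.27, E2f8, a cell cycle repressor, 2.82 ± 0.28, and Klf13, an erythroid-expressed Krüppel-like factor, 2.25 ± 0.20. Rrm1, a subunit of ribonucleotide reductase, had 2.02 ± 0.11 at 1.37 Mb, and Sox6, a repressor of embryonic globin genes, 1.35 ± 0.07, although the bin of its start stood at the expected value. Stim1, a calcium sensor, had 0.69 ± 0.09, and -0.032 against its own bin, which did not pass. Bcam, the Lutheran blood group protein, had 0 counts on 36 fragments in WT of experiment 1, and Ftl1 had too few fragments to test. Genes beyond the list with ratios as high, picked by the ranking, were Mki67, a proliferation marker (4.17 ± 0.11), and Mesdc2, a chaperone of lipoprotein receptors (4.10 ± 0.12).

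On chromosome 14, 6 of 7 listed genes were above, with a median ratio of 4.42, where 62.8% of all genes tested were above with a median of 3.09. The gene with the highest ratio of the 398 tested was not listed: Ncoa4, at chr14:32973051-32993041 and 36.9 Mb from mitoferrin, had 93.3, 52.5 and 54.6 counts per 100000 in WT of experiment 1. With 94 counts where 2.74 were expected, the log2 ratio was 5.10 ± 0.25. It was 2.66 when only fragments ever hit were counted as opportunity. WT of experiment 2 had 75.2, 45.2 and 73.2, where Ncoa4 again ranked first, and ∆44/48 had 31.9, 71.5 and 69.4, so the genotypes overlapped. The chromosome 11 viewpoints hit it at 16.4 times the mean of the genes tested. A fragment of Ncoa4 with 7 counts lies in an intron at chr14:32985027-32985317 and is shown with its DpnII sites in capitals.
Ncoa4 fragment 2: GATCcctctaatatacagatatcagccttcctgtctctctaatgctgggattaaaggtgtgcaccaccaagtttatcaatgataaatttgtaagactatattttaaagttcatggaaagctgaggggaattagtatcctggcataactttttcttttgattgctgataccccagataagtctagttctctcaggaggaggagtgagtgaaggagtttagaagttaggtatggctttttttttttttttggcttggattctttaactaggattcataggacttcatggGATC
Glt8d1, a glycosyltransferase, also stood high (4.64 ± 0.31).

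The listed genes of chromosome 14 ranged from well above to below the median of all genes tested. Epb4.9, which encodes dematin of the red cell membrane skeleton and lies 1.12 Mb away, had 402, 490.4 and 467 counts per 100000 in WT of experiment 1 and 602, 550.4 and 699 in WT of experiment 2, with a log2 ratio of 3.29 ± 0.08 in the former. Pnp, purine nucleoside phosphorylase, had 91.1, 68.1 and 69.8 (4.22 ± 0.19) at 18.3 Mb. Bnip3l, which marks mitochondria for removal as red cells mature, had 182, 152 and 162 (3.05 ± 0.12), although its bin was below the expected value. Xpo7, a nuclear exporter that acts in late erythroid maturation, had 2.14 ± 0.06, Rb1, the retinoblastoma protein, 1.08 ± 0.09, and Lcp1, an actin-bundling protein of leukocytes, 1.04 ± 0.11. Tsc22d1, a transcriptional regulator, did not pass (0.13 ± 0.16), and was at -0.59 against its own bin.

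**Figure D4:**
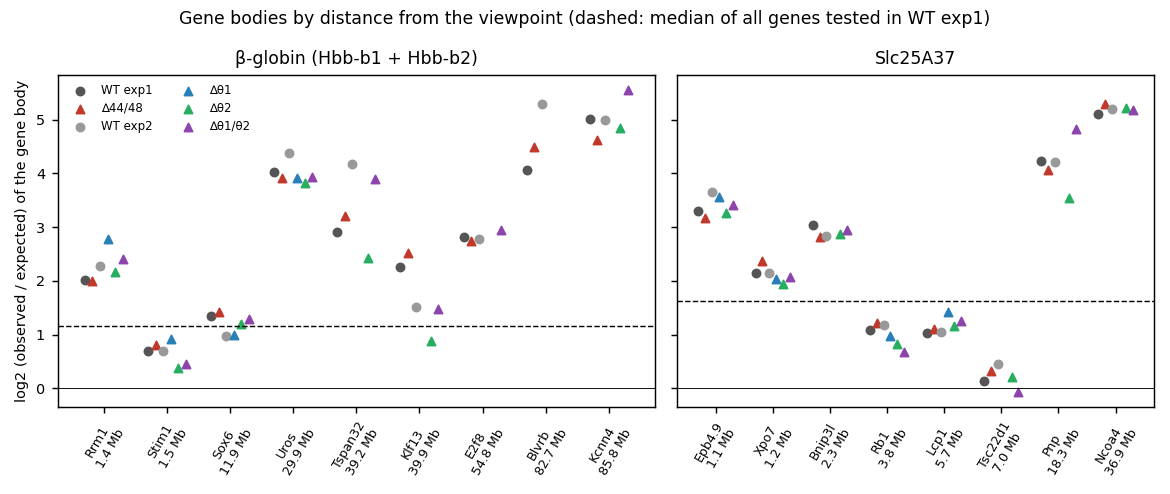
Log2 of observed over expected counts (y axis) of listed gene bodies and of Ncoa4, ordered by distance from the viewpoint (x axis), for β-globin and Slc25A37. Circles are the WT groups and triangles the deletion groups with at least 10 counts, and the dashed line is the median of all genes tested in WT of experiment 1, above which Uros, Kcnn4, Ncoa4 and Pnp lie and below which Stim1, Rb1, Lcp1 and Tsc22d1 lie.

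The pattern of high and low bins was shared between genotypes. Of the 42 β-globin bins above in WT of experiment 1, 42 were also above in ∆44/48 (44 of 139 called, 31.7%), 33 in WT of experiment 2, 32 in ∆θ2 (33 of 133, 24.8%), 34 in ∆θ1/θ2 (36 of 122, 29.5%) and 14 in ∆θ1 (15 of 89, 16.9%), in which fewer bins could be tested. For the 32 Slc25A37 bins the numbers were 27 in ∆44/48 (27 of 115, 23.5%), 29 in WT of experiment 2, 27 in ∆θ2 (27 of 112, 24.1%), 27 in ∆θ1/θ2 (27 of 101, 26.7%) and 11 in ∆θ1 (11 of 53, 20.8%). In no group did edgeR call a bin above that was called below in WT of experiment 1, or the reverse. Of the 67 low β-globin bins, 54 of 65 tested were low in ∆44/48 (39.6% of all bins were), 47 of 56 in WT of experiment 2, 8 of 29 in ∆θ1 (8.99%), 41 of 61 in ∆θ2 (30.8%) and 46 of 54 in ∆θ1/θ2 (37.7%). Of the 61 low Slc25A37 bins, 41 of 61 were low in ∆44/48 (35.7%), 43 of 47 in WT of experiment 2, 4 of 9 in ∆θ1 (7.55%), 55 of 58 in ∆θ2 (50%) and 37 of 48 in ∆θ1/θ2 (39.6%).

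Across bins, the log2 ratios of WT of experiment 1 and of the other groups had Pearson correlations between 0.917 (∆θ1, 89 bins) and 0.978 (WT of experiment 2, 126 bins) for β-globin and between 0.936 (∆θ1, 53 bins) and 0.985 (WT of experiment 2, 101 bins) for Slc25A37. Bins share their fragments, base composition and distance in all groups. WT of experiment 2 shares no sample with WT of experiment 1 and was at the upper end of both ranges. Across gene bodies the correlations ran from 0.865 to 0.965.

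**Figure D5:**
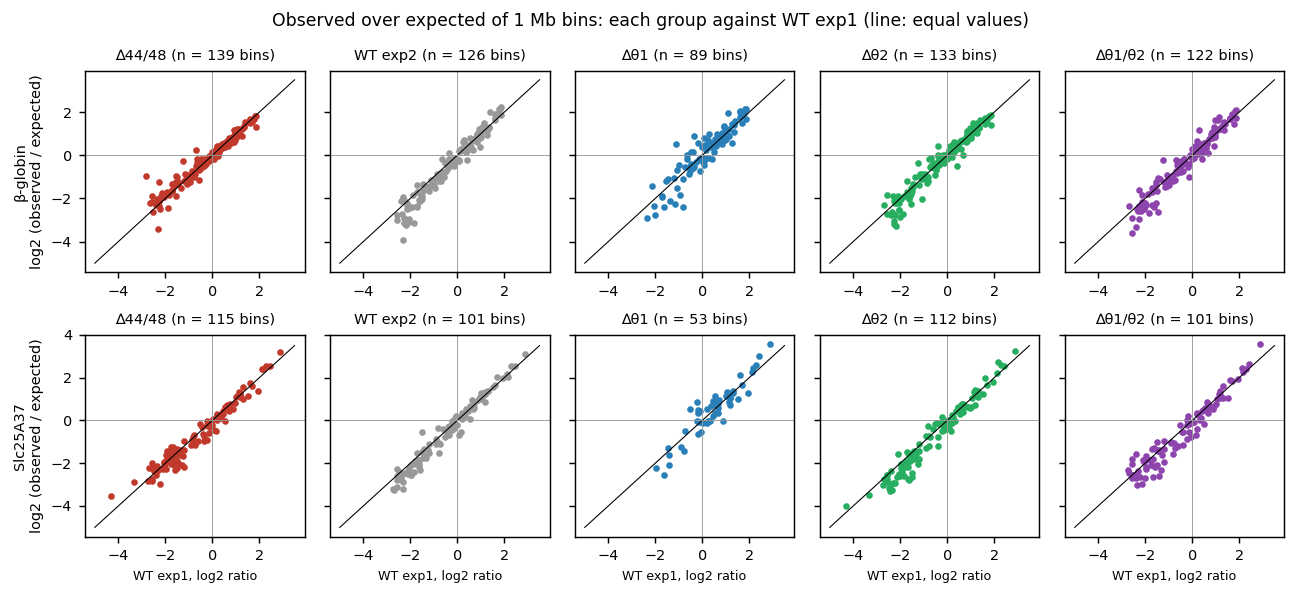
Log2 of observed over expected counts in each other group (y axis) against WT of experiment 1 (x axis), with 1 point per 1 Mb bin and the line of equality, for β-globin and Slc25A37. Points follow the line in all 5 groups and scatter most in ∆θ1, the group with the fewest counts.

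Few bins were called as changed in level between a deletion and its WT samples. With cis counts as library size, 3 of 142 β-globin bins (2.11%) were called in ∆44/48, all higher. The bin at 109 to 110 Mb, of Stim1 and Rrm1, had 2611, 2914 and 2852 counts per 100000 in WT and 3597, 3777 and 4323 in ∆44/48, without overlap (log2 change 0.48 ± 0.10, SE, adjusted p = 0.00169). The bin at 55 to 56 Mb had 27.8, 27.02 and 28.6 against 107, 60.8 and 66.5 (1.42 ± 0.32, adjusted p = 0.00306), and that at 115 to 116 Mb 151, 210.0 and 212 against 387, 229 and 372 (0.76 ± 0.18, adjusted p = 0.00439). In both, all ∆44/48 samples lay above all WT samples. Over all 142 bins the median log2 change was 0.37 and 135 were above 0, as the long-range share was also higher. With long-range counts as library size the median was 0.03 and edgeR called 0 bins (9 at an unadjusted p under 0.05). Leaving out WT replicate 1, ∆44/48 replicate 2 or ∆44/48 replicate 3 also left 0 calls, and leaving out ∆44/48 replicate 1 gave 6. With the higher count of the pair per fragment 4 bins were called.

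Against WT of experiment 2, edgeR called 0 β-globin bins (0%) of 128 in ∆θ1, of 136 in ∆θ2 and of 134 in ∆θ1/θ2, with 21, 10 and 4 at an unadjusted p under 0.05, and DESeq2 called 0 in each. The median log2 changes were 0.37, 0.12 and -0.05. Slc25A37 had 0 called bins (0%) of 118 in ∆44/48 and of 105 in ∆θ1 (9 and 8 at an unadjusted p under 0.05, and 0 by DESeq2). The depth of ∆θ1 limits what could be seen in it, and in all comparisons a bin that was not called is not shown to be unchanged.

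With cis counts as library size, the mitoferrin bins called in ∆θ2 and ∆θ1/θ2 were all lower. In ∆θ2, 2 of 115 bins (1.74%) were called. The bin at 31 to 32 Mb was higher in all 3 ∆θ2 samples than in all WT samples but did not pass (log2 change 0.57 ± 0.19, adjusted p = 0.0862), and it was called higher with long-range counts as library size (0.79), with TMM factors, in DESeq2 and with each fragment counted once. The bin at 51 to 52 Mb, which holds Pnp, had 998, 739 and 894 counts per 100000 in WT and 465, 506 and 539 in ∆θ2, without overlap (log2 change -0.80 ± 0.17, adjusted p = 0.000289). It was still called with long-range counts as library size (-0.59, adjusted p = 0.00934) and in DESeq2 (adjusted p = 0.00842), but not with each fragment counted once (-0.43, adjusted p = 0.437). In the same bin ∆θ1/θ2 was also lower (-0.63 ± 0.15, adjusted p = 0.00232), though not with long-range counts as library size (-0.19, adjusted p = 0.615), and ∆θ1 and ∆44/48 were not called (-0.27 and -0.17). The bin at 71 to 72 Mb, of Epb4.9 and Xpo7, had 2175, 2370 and 2081 in WT and 1331, 1612 and 1793 in ∆θ2 (-0.50 ± 0.13, adjusted p = 0.0043), and an adjusted p of 0.385 with long-range counts as library size. Leaving out WT replicate 1 or ∆θ2 replicate 1 or 2 took the adjusted p of the bin at 51 to 52 Mb to 0.0169, 0.0118 and 0.0222, and left 0 calls in all, while without ∆θ2 replicate 3 there were 6.

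In ∆θ1/θ2, 12 of 115 Slc25A37 bins (10.4%) were called, all lower. The bin at 71 to 72 Mb had 1310, 1143 and 1458 (log2 change -0.77 ± 0.11, adjusted p = 4.24e-06), below all WT samples. The bins at 73 to 74 Mb, with Rb1 (-0.78 ± 0.15, adjusted p = 0.000235), and at 52 to 53 Mb (-0.73 ± 0.15, adjusted p = 0.000684) followed. Over all 115 bins the median log2 change was -0.45 and 93 were below 0. With long-range counts as library size the median was -8e-05 and edgeR called 0 bins (10 at an unadjusted p under 0.05), and DESeq2 with its own size factors called 0. With the replicate number as a block 1 bin was called. Without WT replicate 2 there were 2 calls and without ∆θ1/θ2 replicate 2 there were 5.

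Few gene bodies were called as changed, which does not show that the others were unchanged. Of 898 β-globin genes, 1 was called in ∆44/48 (0.111%), Uvrag, a regulator of autophagy, with a log2 change of 0.95 ± 0.20 (edgeR adjusted p = 0.00158). Its WT samples had 109, 112 and 141 counts per 100000 and its ∆44/48 samples 93.4, 215 and 366, so the groups overlapped, and 0 genes were called without WT replicate 1, WT replicate 2 or ∆44/48 replicate 3. In the other 7 comparisons edgeR called 0 genes (0%), with 20 to 37 at an unadjusted p under 0.05, and DESeq2 called 0 in all 8. Listed erythroid genes were not called in any of the 8. The 7 of chromosome 14 had median log2 changes of -0.64 in ∆θ2 and -0.79 in ∆θ1/θ2, where the medians over all genes tested were -0.19 and -0.43. In ∆44/48 and ∆θ1 their medians were -0.16 and -0.35 against -0.23 and -0.22. Those of the 9 of chromosome 7 were 0.41, 0.45, -0.42 and -0.085 in ∆44/48, ∆θ1, ∆θ2 and ∆θ1/θ2. Over all genes tested there the medians were 0.26, 0.37, 0.014 and -0.077. Epb4.9 in ∆θ2 came nearest, with 326, 274 and 443 against 602, 550.4 and 699 in WT (log2 change -0.86 ± 0.20, adjusted p = 0.01005, not past the threshold of 0.01), and no sample of one group reached the other.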

How the data were processed

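The deposited files hold, for each sample, the count of unique ligation products per viewpoint and DpnII fragment. According to the methods, the authors used Trim Galore for trimming, FLASH for joining read pairs, an in silico DpnII digest and Bowtie for mapping on mm9, and left PCR duplicates out, without normalisation. Fragments without a count are not listed. A zone of 1000 bp on each side of the viewpoint fragments was not used, fragments were put in the bin of their midpoint, and Hbb-b1 and Hbb-b2 were summed.

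The tests took bins with 100 or more fragments and 10 or more counts and used edgeR 4.0.16 under R 4.3.3 (quasi-likelihood test, Benjamini-Hochberg adjustment over all bins or genes of the viewpoint's chromosome, threshold 0.01). Expected counts came from a spline with 3 degrees of freedom of log distance, with fragments as offset. Changes used cis counts as library size, and each deletion was compared with WT of its own experiment. DESeq2, which the study names in another version, was an alternative and was run here in version 1.42.0. For shares and exponents, exact permutation tests (two-sided) were run in scipy 1.17.1, with Python 3.11.15, numpy 2.4.6, pandas 2.3.3 and matplotlib 3.10.9. The models were tested on simulated data.

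The bins named are, per viewpoint, at most the 10 with the highest and the 5 with the lowest ratio among those called, at most 3 per comparison, and the bins of listed genes. The members, lists and tests were chosen with earlier results of these data known. The alternatives with the higher count of the pair, fragments ever hit and chromosome 11 counts, the gene bodies and the genes beyond the lists were added after values were seen. Ahsp, Tcra and Tcrd were not found under these names in the annotation and are not analysed here, and some items that the rule names are not reported here. The other alternatives were a wider zone, each fragment counted once, 1 viewpoint alone, other distances, bin widths, curves, library sizes and count minimums, a block for the replicate number, and leaving out single replicates.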

Additional observations from a re-analysis of the deposited data

How the results depend on the processing

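Directions and calls held for most settings, with the exceptions given here. Depth limits ∆θ1 most, and the cause of the other changes was not tested except where the setting itself lowers the number of bins or counts. Counting each fragment once turned the difference in long-range share to -3.30 points for β-globin in ∆44/48, -7.78 in ∆θ1 and 2.03 for Slc25A37 in ∆θ2. It left 0.821 points between β-globin and α-globin in experiment 1 and -0.558 between Slc25A37 and α-globin in experiment 2, and a wider zone left 0.684 for the former. The β-globin exponent difference turned to 0.0049 in ∆44/48 by least squares and to 0.0090 in ∆θ1/θ2 within 40 Mb.

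Bins above and below in WT numbered 26 and 31 (experiment 1) and 15 and 20 (experiment 2) for β-globin and 13 and 32, and 11 and 22, for Slc25A37 at 2 Mb width, which has fewer bins. With fragments ever hit as opportunity, 18 and 15 β-globin bins and 19 and 18 Slc25A37 bins were above. With chromosome 11 counts as opportunity, 20 β-globin and 15 Slc25A37 bins were above and 25 Slc25A37 bins below in experiment 2. With at least 30 counts, 9 Slc25A37 bins were below there. Gene bodies above numbered 207 and 101 for β-globin and 122 and 86 for Slc25A37 by fragments ever hit, 288, 124, 163 and 98 against their own bin, and 107 and 62 in experiment 2 with at least 30 counts. Single bins and genes turned on the log2 scale. By a power law the bins at 4 to 5 and 16 to 17 Mb were at -0.19 and -0.031. By chromosome 11 counts those at 52 to 53, 87 to 88, 22 to 23, 9 to 10 and 21 to 22 Mb were at -0.51, -0.20, 0.60, 0.093 and 0.71. Only the first of these values passed. Stim1 was at -0.032 against its own bin, and Tsc22d1 at -0.31 by fragments ever hit and -0.59 against its own bin.

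Changed β-globin bins in ∆44/48 numbered 0 with a wider zone, each fragment once, DESeq2, TMM factors or long-range counts as library size, 11 at 5 Mb width, 9 for Hbb-b1 alone and 38 at an adjusted p under 0.05. In ∆θ1, 1 was called at 5 Mb width, and in ∆θ2 1 with each fragment once. Changed Slc25A37 bins numbered 7 in ∆θ1 with each fragment once and 1 with TMM factors or at 0.05, 1 in ∆θ2 with each fragment once (higher) or at 5 Mb width (lower), and in ∆θ1/θ2 0 with each fragment once, DESeq2, TMM factors or long-range counts as library size and 25 at 0.05. The changed gene of ∆44/48 was lost (0) with long-range counts as library size and with DESeq2.

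Same-numbered samples did not deviate together (correlations from -0.350 to 0.360), so the numbers do not pair samples. With the replicate number as a block, 1 β-globin bin in ∆44/48, 1 Slc25A37 bin in ∆θ1/θ2 and 1 Slc25A37 gene in ∆θ1/θ2 were called.

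With each replicate left out in turn, β-globin bins below ran from 40 to 67 in WT of experiment 1, and in experiment 2 bins above from 0 to 35 and below from 0 to 43. For Slc25A37 in experiment 2 they ran from 19 to 27 and from 15 to 30. Gene bodies above in experiment 2 ran from 122 to 168 and from 100 to 134. Changed bins ran from 0 to 6 for β-globin in ∆44/48, and for Slc25A37 from 0 to 1 in ∆44/48 and ∆θ1, 0 to 6 in ∆θ2 and 2 to 16 in ∆θ1/θ2. Changed genes ran from 0 to 2 for β-globin in ∆44/48 and from 0 to 1 for Slc25A37 in ∆θ2. Exponent differences of β-globin ran from -0.0239 to 0.0078 in ∆44/48 and from -0.0225 to 0.0022 in ∆θ1/θ2. Share differences ran from -0.523 to 3.91 points (∆θ2) and -4.41 to 0.119 (∆θ1/θ2) for β-globin, and from -2.69 to 0.160 for Slc25A37 in ∆θ1. In experiment 1, where 5 samples cannot pass 0.05, β-globin was above Slc25A37 by 9.31 to 13.6 points and above α-globin by 5.51 to 8.04, and the difference of Slc25A37 minus α-globin ran from -5.59 to -3.80.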

Other observations

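A DpnII fragment at chr7:147659332-147659479, which lies outside annotated genes, had the highest single long-range count of both β-globin viewpoints, 17 from Hbb-b1 and 26 from Hbb-b2 in replicate 3 of ∆44/48. Replicates 1 and 2 of ∆44/48 had 1 and 7 from Hbb-b1 and 3 and 9 from Hbb-b2, and all 3 WT samples of experiment 1 and all 12 samples of experiment 2 had 0.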
